A study of Mus musculus with 8 samples.

Results

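Arterial-type endothelial cells of the mouse hippocampus were examined: 275 of the 5258 cells in the deposited table. Transcripts of single cells had been captured from 8 mice on the 10x Chromium, where a unique molecular identifier (UMI) marks each captured molecule. All 8 were wildtype (a/a) offspring killed at 5 months, and all hippocampi were dissociated enzymatically with heat, frozen and thawed. In the Pb group, 4 mice (2 females, 2 males) had a/a dams given 32 ppm Pb-acetate in the drinking water from 2 weeks before mating until lactation ended, and lived on Pb-free water after weaning. The dams of the 4 control mice (2 females, 2 males) were not given lead. Litters are not named in the labels, which keep 1 male and 1 female of each, so some mice counted as independent may share a dam. Below, F1 and F2 are the females and M1 and M2 the males of each group.

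The cells were chosen by their own counts. Of the 5205 cells with at most 20% mitochondrial UMIs, 1342 were taken as endothelial: Cldn5, Flt1, Pecam1, Ly6c1, Itm2a, Slco1a4, Cdh5, Slc2a1 and Abcb1a together made up at least 0.7% of UMIs, pericyte genes under 0.4% and smooth muscle genes under 0.25%. The cells nearest the first limit had 0.702% inside and 0.677% outside. An endothelial cell was arterial-type when its summed UMIs of Alpl, Cytl1, Sema3g and Bmx exceeded those of the capillary and venous genes Slc38a5, Hmcn1 and Car4. The reverse gave 993 capillary-venous cells, and 74 ties were left out, 29 of them with 0 in both sums. The arterial lead was 4 UMIs in the median member and 56 at most. It was 1 UMI in 50 members, and 76 cells just outside trailed by 1. Since these counts picked both classes of cells, the contrast between them is described with no test.

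Arterial endothelium lines the vessels that bring blood into the brain under higher pressure and more pulsatile flow than capillaries or veins. Its identity is set in development by VEGF and Notch signalling, with SOX17, HEY factors and the ligand ephrin-B2 as well-known components, and it lies against elastic matrix and contractile smooth muscle. It shares the tight junctions of the blood-brain barrier, while most nutrient transport takes place in capillaries.

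In the order F1, F2, M1, M2, the Pb mice gave 32, 28, 80 and 46 arterial-type cells and the control mice 13, 27, 27 and 22. Their UMIs per mouse ran from 149100 (control M2) to 687178 (Pb M1). The median member had 6621 UMIs, against 5327 in capillary-venous cells, and Scrublet marked 2 members as doublets. Some cell barcodes stood in several libraries: 32 barcodes, held by 91 cells, of which 2 occurred in all 8 libraries. Among the members, 10 cells with 4 distinct barcodes were of this kind. In control F1, 3 such cells had 23746, 30941 and 31664 UMIs and gave 56.5% of that mouse's arterial-type UMIs. The 7 in other libraries had 1672 to 2541 UMIs, and 6 of these had a barcode whose deepest cell was in control F1. Results that rest on these cells are also given without them.

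Promoters of marker genes are shown because these genes define the cells. Each is the 250 bases before a transcription start in RefSeq (build GRCm38.p6), 5′ to 3′ along the gene. Capitals mark AGGAAG on either strand (CTTCCT when on the other), a core that ETS transcription factors can bind. Alpl, which encodes tissue-nonspecific alkaline phosphatase, has a pair of entries. Sema3g encodes a secreted class 3 semaphorin and Bmx a Tec-family kinase. Gkn3, a gastrokine, was outside the rule and led the comparison that follows.
Alpl, first entry (chr4:137796385-137796634, - strand): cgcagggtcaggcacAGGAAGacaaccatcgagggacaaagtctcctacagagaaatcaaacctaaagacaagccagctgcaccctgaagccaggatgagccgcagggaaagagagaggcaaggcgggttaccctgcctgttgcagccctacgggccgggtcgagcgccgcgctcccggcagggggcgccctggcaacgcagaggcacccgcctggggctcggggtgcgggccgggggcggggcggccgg
Alpl, second entry (chr4:137766476-137766725, - strand): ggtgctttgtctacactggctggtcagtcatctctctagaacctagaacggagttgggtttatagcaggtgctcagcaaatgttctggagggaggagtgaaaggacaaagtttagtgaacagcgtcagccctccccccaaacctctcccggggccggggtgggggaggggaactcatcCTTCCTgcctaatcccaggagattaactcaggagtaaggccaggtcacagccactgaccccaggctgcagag
Sema3g (chr14:31217623-31217872, + strand): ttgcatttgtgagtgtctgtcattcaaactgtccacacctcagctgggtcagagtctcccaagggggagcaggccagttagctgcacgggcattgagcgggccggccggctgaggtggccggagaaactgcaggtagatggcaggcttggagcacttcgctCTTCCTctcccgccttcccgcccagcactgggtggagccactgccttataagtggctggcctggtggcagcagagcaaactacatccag
Bmx (chrX:164258194-164258443, - strand): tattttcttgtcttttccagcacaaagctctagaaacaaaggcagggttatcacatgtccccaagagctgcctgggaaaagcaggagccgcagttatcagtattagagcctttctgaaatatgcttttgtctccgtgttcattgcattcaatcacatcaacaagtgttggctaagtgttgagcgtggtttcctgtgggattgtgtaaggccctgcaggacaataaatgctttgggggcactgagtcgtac
Gkn3 (chr6:87388936-87389185, - strand): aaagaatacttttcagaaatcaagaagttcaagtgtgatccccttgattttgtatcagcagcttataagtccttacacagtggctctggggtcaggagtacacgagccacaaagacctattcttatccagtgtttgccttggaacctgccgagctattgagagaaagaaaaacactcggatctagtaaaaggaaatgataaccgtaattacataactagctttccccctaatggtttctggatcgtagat
AGGAAG was found once in Sema3g and once in each Alpl window, and not in the Bmx and Gkn3 windows. It is in 29.5% of 32851 RefSeq mouse windows of this length. TGGGAA, a core of sites for the Notch partner RBPJ, was also searched on both strands. It had 1 match in Bmx and 0 in the Alpl, Sema3g and Gkn3 windows, against 21.6% of all windows. A match is a run of letters, not a measured site.

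The genes that chose the cells were unevenly spread over them. Alpl had a UMI in 246 of 275 members (89.5%, 95% Wilson interval 85.3 to 92.6%), Sema3g in 78.2% (72.9 to 82.7%) and Bmx in 57.1% (51.2 to 62.8%). In capillary-venous cells these shares were 22.3%, 13.1% and 4.73%, and in the other kept cells 9.58%, 6.42% and 3.94%. Intervals cover counting error only. Of the 4 arterial genes, 7 members had all, 114 had 3, 107 had 2 and 47 had 1. Members with more of them were deeper, with a median of 4344 UMIs for 1 gene and 10093 for 3.

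Cytl1, which encodes a small secreted protein, was seen in few members. It had UMIs in 13 (4.73%, Wilson interval 2.78 to 7.92%) from 4 mice: 9 in Pb M1, 2 in control M1 and 1 each in Pb F1 and control F2. Of its 120 UMIs in members, 48 lay in 1 cell. Levels below are UMIs summed over the cells of a class and scaled to the same total in every profile (CPM). Some matrix genes had higher summed levels in the 13 Cytl1-positive cells, and others did not. Mgp, the matrix Gla protein that restrains vessel calcification, was at 6200 against 833.5 CPM in the other members, Eln (tropoelastin) at 1027 against 120.6 CPM, and Fbln5, which helps assemble elastic fibres, at 636.1 against 19.2 CPM. Mgp had a UMI in 69.2% of the 13 cells and 69.8% of the others. Its gap therefore lay in the UMIs of the cells that had it and not in how many had it. Few cells can carry such sums: in Pb M1, 1 of the members held 268 of 1215 Mgp UMIs. Eln had a UMI in 61.5% of the 13 cells against 41.2% of the others, and Fbln5 in 38.5% against 6.11%. Timp3, a metalloproteinase inhibitor, at 1495 against 1623 CPM, Sparc, a collagen-binding protein, at 866.1 against 1041 CPM, and Col4a2, a basement membrane chain, at 145.6 against 185.0 CPM, were lower in the Cytl1-positive cells. Gkn3 was at 1104 against 971.8 CPM. These values have no test, since 9 of the 13 cells came from 1 mouse.

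Against capillary-venous cells of the same mice, many arterial genes outside the rule stood higher. Of 3665 genes outside the rule with a mean of at least 50 CPM in the higher class, 272 (7.42%) were higher in arterial-type cells in 8 of 8 mice and 293 (7.99%) lower. Ratios are means over the 8 mice of the log2 ratio of CPM + 5, and errors are SD (n = 8). Gkn3 ranged from 602.8 over a median of 970.7 to 1265 CPM in arterial-type cells and from 30.2 over 62.3 to 130.6 CPM in capillary-venous cells. The classes did not overlap, and the log2 ratio was 3.83 (SD 0.70). Mgp ranged from 527.8 over a median of 933.5 to 1768 CPM, against 45.2 over 85 to 152.7 CPM (3.50, SD 0.69). Its lowest arterial-type value, in Pb M2, lay above the highest capillary-venous one. The top cell held from 11.6% (Pb F2) to 68.2% (control M2) of a mouse's arterial-type Mgp UMIs.

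Further genes with the widest gaps were of several kinds. Stmn2, a microtubule regulator best known from neurons, ranged from 435.6 over a median of 540.5 to 594.8 CPM against 27.5 over 50.1 to 89.5 CPM (3.18, SD 0.57). It had a UMI in 79.3% of members and 19.4% of capillary-venous cells. Ccnd2, cyclin D2, was at 151.2 ± 49.6 against 12.9 ± 2.12 CPM (3.08). Vegfc, a ligand best known from lymphatic growth, ranged from 58.9 over a median of 88.3 to 134.1 CPM against 1.31 over 6.92 to 29.8 CPM (2.84), again without overlap. The rest of the 20 highest were Nov, Lypd1, Eln, Tmem100, Col18a1, Emp1, Sncg, Cd24a, Fbln2, Cdh13, Egfl8, Alox12, Lrrc32, Msx1 and Hey1, with log2 ratios from 2.10 (Hey1) to 2.85 (Nov). Only Nov of the 20 overlapped between classes, and without the shared barcodes all 20 stayed higher in 8 of 8 mice.

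**Figure D1:**
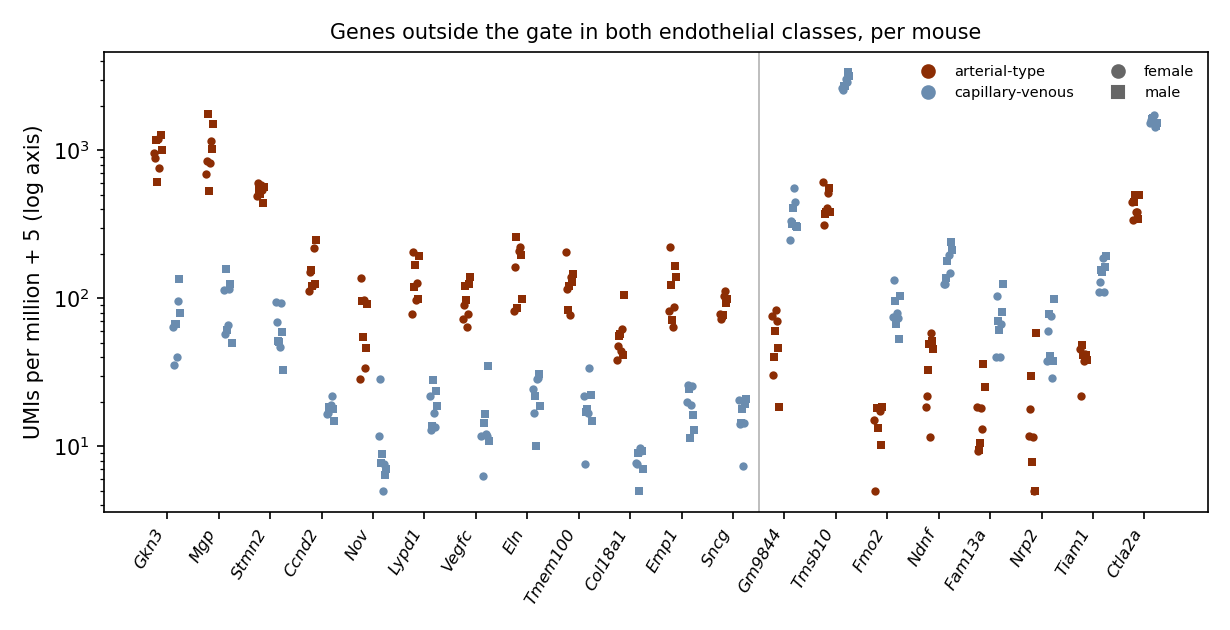
CPM + 5 on a log axis for the 12 genes outside the rule with the highest and the 8 with the lowest log2 ratio, 1 point per mouse and class (circles females, squares males). Gkn3, Mgp and Stmn2 lie higher in arterial-type cells in every mouse (log2 ratios 3.83, 3.50 and 3.18), and Tmsb10 lies lower (-2.74).

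The 10 genes lowest relative to capillary-venous cells were led by Gm9844, a predicted gene whose reads may be shared with a similar locus (48.2 ± 23 against 358.9 ± 100.1 CPM, log2 ratio -2.88). Tmsb10, thymosin beta 10, an actin-binding peptide, ranged from 310.1 over a median of 387.5 to 603.5 CPM in arterial-type and from 2551 over 2820 to 3356 CPM in capillary-venous cells (-2.74, SD 0.32). The classes were far apart in every mouse. Ctla2a, a cathepsin inhibitor, was at 413.1 ± 64.4 against 1566 ± 100.6 CPM (-1.92). Slc39a8, a zinc and manganese importer, ranged from 16.8 over a median of 25.7 to 36.3 CPM against 88.1 over 99.6 to 123.8 CPM (-1.81). Fmo2, Ndnf, Fam13a, Nrp2, Tiam1 and Net1 made up the rest, with overlap for Nrp2 and Net1.

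Most of the arterial list was high. Of its 20 genes, all outside the rule, 17 reached 50 CPM, and of these 14 were higher in 8 of 8 mice and 1, Nrp1, lower, with a median log2 ratio of 1.70 against -0.04 over all 3665 genes. Of all 3665 genes, 7.42% were higher and 7.99% lower in 8 of 8 mice. Tm4sf1, a membrane protein, was at 1458 ± 185.5 against 375.1 ± 54.2 CPM. Efnb2, the ephrin-B2 ligand, was at 90.1 ± 20.8 against 25.6 ± 5.43 CPM, and Hey1, a Notch target, at 195.4 ± 35.3 against 43.5 ± 14.4 CPM. Neither overlapped between classes. Sox17, an arterial transcription factor, was at 602.9 ± 110.0 against 445.0 ± 56.5 CPM, higher in 7 of 8 mice and overlapping. Gja5, also on the list, had 4 UMIs in members without Cytl1 and 0 in those with it, and Aqp1 had 6 and 0. Of 10 capillary genes 7 were lower and 0 higher in 8 of 8 mice (median -0.96), among them Slc16a1, the monocarboxylate transporter, at 234.5 ± 96.8 against 609.5 ± 90.8 CPM. Of 8 venous genes 5 were lower and 0 higher (median -0.87), among them Nr2f2, the COUP-TFII regulator of venous fate, at 29.1 ± 9.82 against 66.1 ± 6.67 CPM. Most arterial genes that the rule did not count stood higher than in capillary-venous cells, while Cytl1 was scarce. Since the cells were picked by arterial transcripts, and the lists with earlier results known, these values are no independent test of the name.

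Notch members differed one by one. Of 11 at 50 CPM or more, the receptors Notch1 and Notch4, the ligands Dll4 and Jag2 and the target Hey1 were higher in 8 of 8 mice, and Lfng, which glycosylates the receptors, was lower. Over all 3665 genes outside the rule, the shares were 7.42% higher and 7.99% lower in 8 of 8 mice. Notch1 was at 210.9 ± 24.5 against 143.5 ± 17.6 CPM (log2 ratio 0.54) without overlap. Dll4 was at 120.2 ± 32.7 against 62.2 ± 9.61 CPM (0.86), with overlap. Hes1, another target, was at 791.9 ± 111.9 against 901.0 ± 224.9 CPM and lower in arterial-type cells in 6 of 8 mice. Of 9 VEGF and angiopoietin genes 1 was higher, Vegfc, and 3 were lower: the main VEGF receptor Kdr, at 184.6 ± 34.9 against 382.9 ± 43.5 CPM (-1.04), and the co-receptors Nrp1 and Nrp2. The receptors Tek (350.3 ± 40.9 against 319.2 ± 22.1 CPM) and Tie1 (241.0 ± 39.9 against 249.6 ± 26 CPM) had mixed directions over mice.

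Among 14 TGF-beta and BMP genes 5 were higher and 0 lower in 8 of 8 mice, against 7.42% and 7.99% of all 3665 genes. The ligand Tgfb2 was at 266.5 ± 55 against 74.9 ± 11.9 CPM (log2 ratio 1.75) and the latent TGF-beta binding protein Ltbp4 at 746.9 ± 62.5 against 493.4 ± 25.1 CPM (0.59), neither overlapping. The inhibitors Smad6 (1.30) and Smad7 (0.39) and the target Id1 (0.32) were the others. The receptors Acvrl1 (0.31) and Eng (0.39) were each higher in 7 of 8 mice.

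Genes of vascular tone and matrix differed member by member. Of 13 tone and flow genes 3 were higher and 1 lower in 8 of 8 mice, against 7.42% and 7.99% of all 3665 genes. Edn1, the vasoconstrictor endothelin 1, was at 548.1 ± 226.9 against 214.5 ± 50.3 CPM (log2 ratio 1.27), with no overlap. Cav1, the caveolar coat protein, was at 311.9 ± 56.9 against 218.9 ± 32.5 CPM (0.50), and Nostrin, a regulator of nitric oxide synthase, at 128.4 ± 25.2 against 277.4 ± 56.5 CPM (-1.07). Nos3, the endothelial synthase, at 160.1 ± 27.8 against 187.4 ± 28 CPM, and the flow-responsive factor Klf2, at 4107 ± 435.8 against 4122 ± 674.6 CPM, had mixed directions. Of 15 matrix genes 6 were higher (Eln, Fbln2, Mgp, Ltbp4, Col18a1, Timp3) and 2 lower (Fn1, Sparcl1). Eln ranged from 77.1 over a median of 174.5 to 253.2 CPM against 5.09 over 18.1 to 25.6 CPM (2.82), without overlap. Col4a1, a basement membrane collagen chain, was at 225.8 ± 21.9 against 207.3 ± 24.1 CPM, with mixed directions.

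Barrier transport and metal handling mostly stood lower. Of 17 junction and transport genes outside the rule 10 were lower and 0 higher, with a median log2 ratio of -0.40. Over all 3665 genes, 7.99% were lower and 7.42% higher in 8 of 8 mice. The transporters Slc7a5 (413.9 ± 78.8 against 955.7 ± 87.4 CPM) and Abcg2 (436.1 ± 59.3 against 757.1 ± 76.9 CPM) did not overlap between classes. Esam, a junction adhesion protein, was at 528.6 ± 106.4 against 771.3 ± 98.8 CPM, and the tight junction protein Ocln at 182.1 ± 39.6 against 227.0 ± 25.2 CPM, lower in 7 of 8 mice. Of 12 metal and heme genes 7 were lower and 2 higher (median -0.71). The metallothioneins, which bind zinc, copper and heavy metals, were among the lower: Mt1 was at 811.8 ± 177.0 against 1840 ± 388.6 CPM (-1.18) and Mt2 at 278.3 ± 71.4 against 795.0 ± 197.4 CPM (-1.50). Tfrc, the transferrin receptor, was at 111.0 ± 19.9 against 282.9 ± 57 CPM (-1.31), and Alad, a heme synthesis enzyme known as a lead target, at 39.8 ± 12.1 against 69.4 ± 12 CPM (-0.76). Slc30a1, a zinc exporter, was higher at 325.9 ± 53.1 against 234.9 ± 32.2 CPM (0.46).

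Of 14 immediate early genes 6 were higher and 0 lower in 8 of 8 mice, against 7.42% and 7.99% of all 3665 genes. Fos was at 4009 ± 557.3 against 2585 ± 466.7 CPM (log2 ratio 0.64) and Cyr61 at 1173 ± 270.9 against 651.9 ± 128.2 CPM (0.83). Of 15 interferon genes 5 were higher, among them Irf7, a transcription factor (210.0 ± 53.1 against 98.4 ± 47.5 CPM, 1.17), and Ifitm3, a membrane antiviral protein (1572 ± 221.7 against 978.1 ± 143.7 CPM, 0.68). Igfbp7, a vascular matrix protein of the IGF list, was at 2743 ± 396.0 against 1541 ± 185.8 CPM. Of 9 adhesion and NF-kB genes the chemokine Cx3cl1 was higher and the adhesion receptor Icam1 lower, counts near the shares over all genes. Of 16 heat shock genes, 0 were higher and 0 lower in all 8 mice.

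**Figure D2:**
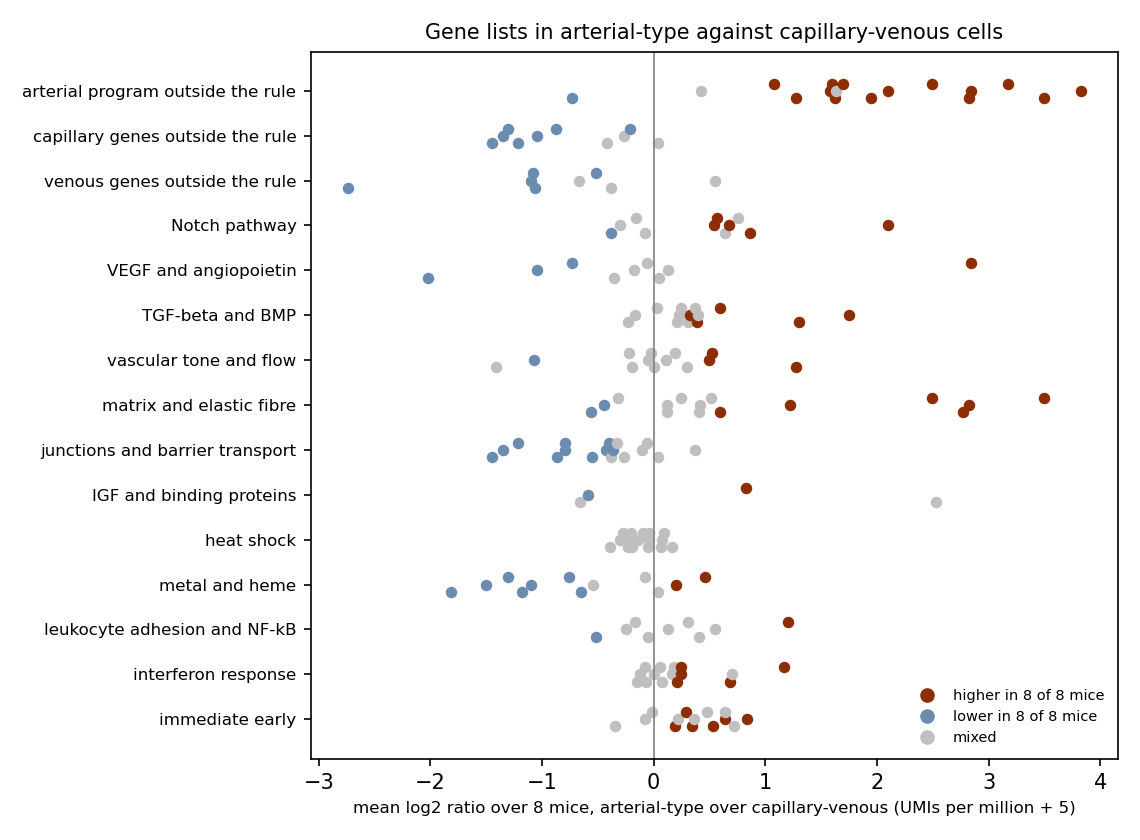
Mean log2 ratio over 8 mice of CPM + 5, arterial-type over capillary-venous, 1 point per gene outside the rule with at least 50 CPM in the higher class, by list, coloured by whether it was higher or lower in 8 of 8 mice. The arterial list lies mostly to the right (median 1.70) and the capillary list to the left (median -0.96).

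RNA of other cell types was present in the summed profiles, and none of the markers listed here was at 0 in every mouse. The 10 smooth muscle markers summed to 189.9 to 539.3 CPM per mouse in arterial-type and 78.6 to 134.8 CPM in capillary-venous cells, with Acta2 at 59.6 ± 25.2 CPM and Myh11 at 32.6 ± 17.6 CPM in the arterial-type cells. The 11 pericyte markers summed to 637.2 to 1840 CPM against 536.4 to 1101 CPM, and the 5 fibroblast markers to 8.33 to 98.2 CPM against 6.56 to 66.3 CPM. Mural and adventitial cells also transcribe Mgp, Eln and Fbln5, and the part of such RNA in their levels was not tested. The 6 neuron markers summed to 523.7 to 739.9 CPM against 82.4 to 149.6 CPM. Stmn2, which is also on the arterial list, made up most of this sum in arterial-type cells. Its mean there was 529.5 of 620.3 CPM, and 57.1 of 114.9 CPM in capillary-venous cells. The 10 oligodendrocyte markers summed to 3910 to 9184 CPM against 4195 to 9303 CPM, the 8 microglia markers to 1100 to 2276 CPM against 1221 to 2365 CPM, and the 7 astrocyte markers to 57 to 344.9 CPM against 89.2 to 273.3 CPM. The widest ranges were those of the 5 choroid plexus markers (8.5 to 13940 CPM against 7.87 to 15120 CPM) and the 5 red blood cell markers (136.0 to 16060 CPM against 176.8 to 13760 CPM). Choroid plexus markers were highest in arterial-type cells of control M2, Pb F1 and control F2. In Pb F1, 1 of the 32 cells held 1510 of the 2620 UMIs of Ttr, a marker of that list.

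Pb was then compared with control in the arterial-type cells, using each mouse's summed UMIs and sex as a covariate (edgeR's quasi-likelihood test, adjusted by Benjamini-Hochberg over 4430 genes, threshold 0.05). With edgeR 0 genes passed (0.0%), and 201 (4.54%) had an unadjusted p under 0.05. DESeq2 and limma-voom each called Hsp90aa1 and Hspa1b, both higher in Pb mice, and had 99 and 200 genes at an unadjusted p under 0.05. In capillary-venous cells 0 of 8332 genes passed with edgeR (0.0%), the only tool run there, and 335 (4.02%) had an unadjusted p under 0.05. In data simulated at these depths the arterial-type fit recovered 70.7% of 92 genes changed by 1 on the log2 scale. It recovered 100% of 86 genes changed by 2, with 8 false calls in the run. Only genes above a minimum count were changed, so the recovery does not cover lower genes.

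The smallest p belonged to Hsp90aa1, the inducible cytosolic HSP90 chaperone (chr12:110690605-110702728, - strand, GRCm38). In the order F1, F2, M1, M2 it stood at 1723, 1521, 1803 and 2011 CPM in Pb and 1198, 813.2, 840.1 and 999.3 CPM in control mice. Every Pb mouse lay above every control mouse, as for 1.6% of genes tested. The log2 fold change was 0.86 (SE 0.15, edgeR adjusted p = 0.07197), and 0.78 (edgeR adjusted p = 0.3896) without the shared barcodes. It passed without Pb F2 (edgeR adjusted p = 0.04273) or control F1 (0.003195), with a lead of at least 2 UMIs in the rule (0.04377) and with no sex covariate (0.04925). Over all alternatives its adjusted p ranged from 2.703e-06 to 0.5146.

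Hspa1b, an inducible HSP70, was at 2474, 2022, 1896 and 1958 CPM in Pb and 1532, 1373, 1022 and 1341 CPM in control mice, in the same order. The groups did not overlap (log2 fold change 0.65, SE 0.13, edgeR adjusted p = 0.1875). It has a near-identical neighbour, Hspa1a (chr17:34969190-34972156), so how reads divide between them is uncertain. Hspa1a itself overlapped between groups (0.56, SE 0.17). The Hspa1b promoter is shown because heat shock factor is known to act on it. Capitals mark GAANNTTC, a pair of inverted heat shock element units that reads alike on both strands.
Hspa1b (chr17:34959239-34959488, - strand): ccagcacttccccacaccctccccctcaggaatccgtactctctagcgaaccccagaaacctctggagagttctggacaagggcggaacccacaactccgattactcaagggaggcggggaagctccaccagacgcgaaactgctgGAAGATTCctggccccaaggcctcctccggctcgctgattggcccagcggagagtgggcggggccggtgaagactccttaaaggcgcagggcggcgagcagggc
The motif had 1 match here, and 6.69% of the 32851 windows hold it. Hspe1, the mitochondrial HSP10 co-chaperonin, was at 291.7, 254.9, 269.2 and 250 CPM in Pb and 170.2, 155.3, 160.8 and 174.4 CPM in control mice. Its groups did not overlap either (log2 fold change 0.68, SE 0.17, edgeR adjusted p = 0.3103).

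Most heat shock genes had fold changes above 0, although 0 passed with edgeR. DESeq2 and limma-voom called Hsp90aa1 and Hspa1b, as given above. Of 17 tested, 15 were above 0 against 49.1% of all genes. Of the same 17, 13 had an unadjusted p under 0.05 with Pb higher, against 1.96% of all genes. In 8 of them every Pb mouse lay above every control mouse, against 1.6% of all genes. The median log2 fold change was 0.56 over the list and -0.005 over all 4430 genes. Without the shared barcodes 15 of 17 were above 0, with a median of 0.45. In capillary-venous cells 17 of 18 were above 0, with a median of 0.25, against a median of 0.0004 over all 8332 genes tested there. The median mitochondrial share of arterial-type cells stood at 3.3, 3.29, 2.63 and 3.48% after Pb and at 4.33, 3.59, 4.27 and 3.94% in controls, so every Pb mouse lay below every control mouse. In capillary-venous cells the groups overlapped in this share (2.73 to 3.44 against 3.3 to 4.91%). Its part in the heat shock values was not tested. The list was chosen with earlier results on these samples in view, so its direction is not independent evidence.

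**Figure D3:**
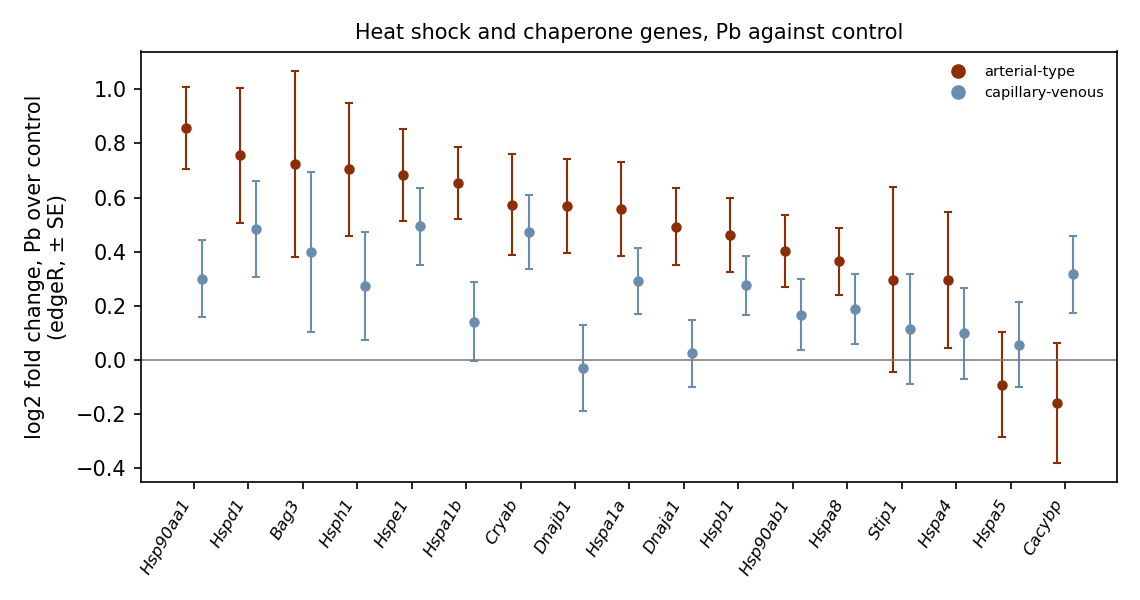
edgeR log2 fold change (± SE) of Pb over control for the 17 heat shock genes tested, in arterial-type and capillary-venous cells of the same mice. In arterial-type cells 15 lie above 0, from 0.30 (Hspa4) to 0.86 (Hsp90aa1), and Hspa5 and Cacybp lie below.

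The other genes among the 10 smallest p-values had edgeR adjusted p from 0.1875 to 0.3103. Slc39a1, a zinc importer, was at 50.3, 46.7, 55.3 and 44.5 CPM in Pb and 131.0, 114.4, 77.8 and 134.1 CPM in control mice, with no overlap (log2 fold change -1.16, SE 0.25). Pkd1, polycystin 1, was at 23.5, 34, 36.4 and 16.7 CPM against 85.1, 65.4, 62.2 and 93.9 CPM (-1.40, SE 0.33), also without overlap. Abhd2, a serine hydrolase, was at 372.2, 267.7, 291.0 and 275.0 CPM against 785.8, 331.0, 539.3 and 590.2 CPM, where Pb F1 lay above control F2 (-0.89, SE 0.21). Pam, which amidates peptides, was lower in every Pb mouse, as for 1.35% of genes tested (90 ± 15 against 159.0 ± 22.7 CPM, SD, n = 4 each, -0.82). Rai14, an actin-associated protein, was higher in every Pb mouse (79.4 ± 7.33 against 35.6 ± 15.4 CPM, 1.18). The predicted genes Gm42726 (-1.64) and Gm10036 (-0.89) were the others. Control M2, at 53.7 CPM of Gm42726, lay among the Pb mice, and that gene passed without it.

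Genes named earlier for a similar cluster of these cells gave the following values. Igfbp3, an IGF-binding protein, was at 30.2, 136.0, 94.6 and 66.7 CPM in Pb and 13.1, 57.2, 57 and 13.4 CPM in control mice, with overlap (log2 fold change 1.04, SE 0.44, edgeR adjusted p = 0.9987). Gm15013 was at 12.9 ± 3.03 against 43.3 ± 16.6 CPM with no overlap (-1.77, SE 0.47, edgeR adjusted p = 0.3543). Hmox1, heme oxygenase 1, was at 38.8 ± 10.2 against 34.5 ± 14.4 CPM (0.19, SE 0.37, edgeR adjusted p = 0.9987).

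For the arterial genes 0 differences passed. Of 18 tested 5 were above 0 and 13 below, against 50.9% of all genes below, with a median log2 fold change of -0.13, and 1, Clu, had an unadjusted p under 0.05 (-0.54). Gkn3 was at 948.9, 883.7, 1173 and 602.8 CPM in Pb and 1192, 751.9, 1265 and 992.6 CPM in control mice (-0.23, SE 0.19). Stmn2 was at 486.2, 594.8, 545.7 and 505.6 CPM against 576.2, 535.3, 435.6 and 556.7 CPM (0.01, SE 0.14). The groups overlapped in both genes. They also overlapped in Alpl (0.07, SE 0.15), Sema3g (-0.12, SE 0.18) and Bmx (-0.12, SE 0.20), which chose the cells.

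Other lists held few small p-values. Of all 4430 genes, 50.9% were below 0 and 49.1% above, the shares to read beside the counts below. Of 10 capillary genes 9 were below 0 (median -0.25), with Slc16a1 at 154.2, 123.2, 155.7 and 291.7 CPM in Pb and 222.6, 261.5, 425.2 and 241.4 CPM in control mice (-0.73, SE 0.22, edgeR adjusted p = 0.5853). Of 9 VEGF and angiopoietin genes 8 were below 0 (median -0.20), and of 14 metal and heme genes 10 (median -0.18), Mt1 at -0.23 among them, with 0 unadjusted p-values under 0.05 in either list. Of 15 immediate early genes 4 had an unadjusted p under 0.05, all with Pb lower, against 2.57% of all genes: Junb, Ier2, Fos and Btg2. Junb, an AP-1 subunit, was at 2793, 2859, 2726 and 2570 CPM in Pb and 3254, 3612, 3547 and 3233 CPM in control mice, without overlap (-0.34, SE 0.11, edgeR adjusted p = 0.7006). Lower values were not particular to arterial-type cells, where 5 of the 15 were above 0 (median -0.09). In capillary-venous cells 1 of 15 was above 0 (median -0.22, against 0.0004 over all 8332 genes), with Fos at -0.44 and Junb at -0.37. In arterial-type cells the interferon list had a median of 0.10 and the adhesion list one of 0.17. Medians of the Notch (-0.05), TGF-beta (-0.02), tone (-0.02), matrix (-0.03), junction (-0.03), IGF (-0.07) and venous (-0.05) lists lay nearer 0. Beside these, 8 of 10 oligodendrocyte markers were above 0 (median 0.43), against 49.1% of all genes. Their sum was not higher in Pb mice, at 5741 to 6743 CPM (mean 6135) against 3910 to 9184 CPM (mean 6567) in control mice. The part of these markers in the gene values was not tested.

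The Pb effect was set against that in capillary-venous cells of the same mice, with mouse as a block. Of 7961 genes 6 differed (0.0754%), and 344 (4.32%) had an unadjusted p under 0.05. Hsp90aa1 differed by 0.56 on the log2 scale (SE 0.12, edgeR adjusted p = 0.02055). Its fold change was 0.86 in arterial-type cells and 0.30 (SE 0.14) in capillary-venous cells, where Pb mice were at 1404, 1526, 1596 and 1426 CPM and control mice at 1399, 1014, 1002 and 1395 CPM. The groups were apart in both classes, but in capillary-venous cells only just. In all 4 control mice the arterial-type level was the lower of the 2 classes, and in 3 of 4 Pb mice, all but F2, it was the higher.

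Klf4, a flow-responsive endothelial transcription factor, differed by 0.55 (SE 0.11, edgeR adjusted p = 0.02055). It was at 1452, 1852, 1695 and 1497 CPM in Pb and 1814, 1594, 1374 and 1261 CPM in control arterial-type cells (0.10, SE 0.14). In capillary-venous cells it was at 971.3, 1538, 1174 and 1064 CPM in Pb and 2053, 1420, 1701 and 1291 CPM in control mice (-0.45, SE 0.16). The groups overlapped in both classes.

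Both differences depended on the cells and the tool. Without the shared barcodes they were 0.51 for Hsp90aa1 and 0.45 for Klf4 (edgeR adjusted p = 0.1772 and 0.4069), and DESeq2 called 0 genes (adjusted p = 0.8406 for both, with 116 genes at an unadjusted p under 0.05). Over all alternatives the adjusted p ranged from 0.0007461 to 0.8406 for Hsp90aa1 and from 0.0004854 to 0.8406 for Klf4. Hsp90aa1 no longer passed without Pb F1, Pb M1, Pb M2 or control M2, and Klf4 without Pb F1, Pb M1, Pb M2, control F1 or control M1. The other 4 genes were the hemoglobin genes Hba-a1, Hba-a2, Hbb-bs and Hbb-bt, with differences from -6.70 to -4.22. Hemoglobin made up 2445 arterial-type UMIs in control F1, of which 1 cell held 2384. In capillary-venous cells the top cell held from 6.67% (control M2) to 99.3% (Pb F1) of a mouse's hemoglobin UMIs. Without control F1, Hba-a1 was at -2.47 (edgeR adjusted p = 0.6587) and Hba-a2 at -3.03 (0.3225), which ended both calls, while Hbb-bt was at -4.34 (0.02086) and Hbb-bs at -3.06 (2.265e-07). With cells over 0.1% hemoglobin left out 1 gene passed, Hsp90aa1 (0.59, edgeR adjusted p = 0.03731).

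**Figure D4:**
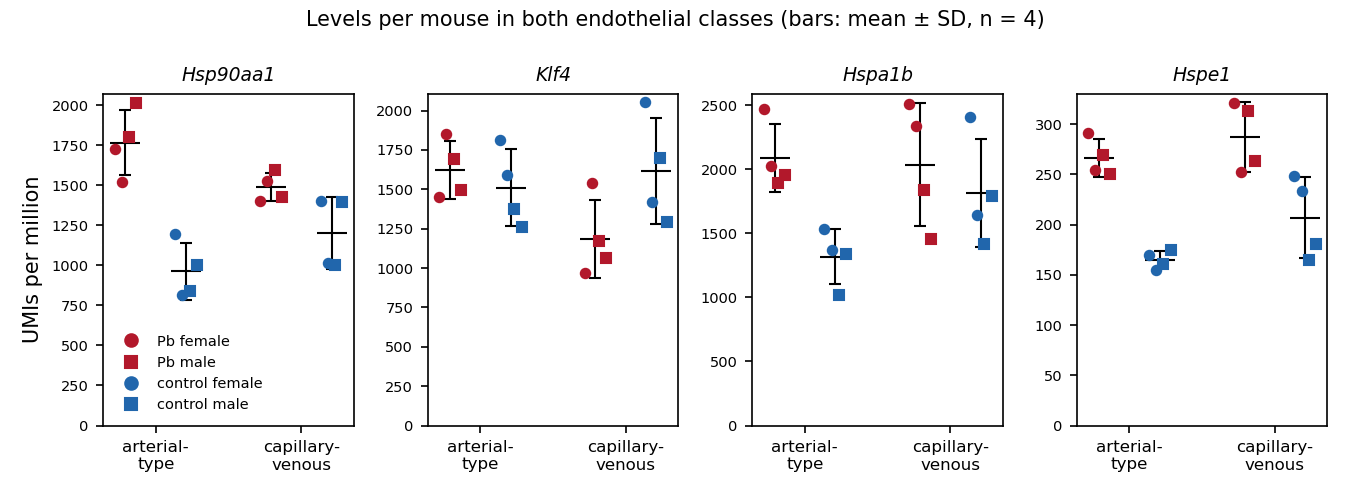
CPM per mouse of 4 genes in arterial-type and capillary-venous cells, Pb and control (circles females, squares males), with mean ± SD of 4 mice. In arterial-type cells Hsp90aa1, Hspa1b and Hspe1 do not overlap between groups (1521 to 2011 against 813.2 to 1198 CPM for Hsp90aa1), while Klf4 overlaps.

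Between the sexes 2 of 4430 genes passed in arterial-type cells (0.0451%), both in the direction of the labels. Xist, the X inactivation RNA, was at 715.1 to 837.0 CPM in the 4 females and 0 to 13.4 CPM in the 4 males (edgeR log2 fold change -7.65, SE 0.32, adjusted p = 2.557e-12). Without the shared barcodes the Xist value was -10.79 (edgeR adjusted p = 6.735e-12), and with 1 cell kept per shared barcode -10.87. The Y-linked helicase gene Ddx3y was at 83.3 to 114.0 CPM in males and had 0 UMIs in females. For the product of exposure and sex 0 of 4907 genes passed (0.0%) with edgeR, the only tool run for it, and 160 had an unadjusted p under 0.05. With 2 mice of each sex and group the simulated recovery was 6.1% for a log2 change of 1 and 60.6% for 2, again for genes above a minimum count. The smallest p-values were for Hbb-bs (5.06), Enpp2 (-4.05) and Uaca (-1.30), all with an edgeR adjusted p of 0.9971. The first 2 moved when 1 mouse was left out: Hbb-bs was at 1.45 without control F1, and Enpp2 at -1.39 without Pb F1 and -1.99 without control M2. Enpp2, which choroid plexus also transcribes, stood at 660.5 CPM in Pb F1 and 717.6 CPM in control M2, the mice with the most choroid plexus marker RNA, and at most 118.5 CPM in the other 6. In Pb F1, 1 cell held 57.6% of the arterial-type UMIs of the choroid plexus marker Ttr. The part of choroid plexus RNA in the Enpp2 values was not tested.

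Arterial-type cells made up 14.2% of the endothelial cells of Pb F1 (95% Wilson interval 10.2 to 19.3%), and 17.9%, 24.8% and 24.6% for the other Pb mice in order. The control shares were 21.3%, 15.3%, 22.1% and 23.9%. The groups overlapped, with means of 20.4% ± 5.24 (SD, n = 4) in Pb and 20.7% ± 3.72 in control mice, a difference of -0.286 percentage points (exact two-sided permutation test, p = 0.9429). Without the shared barcodes the sign turned (0.894 points). By sex, the 4 males (22.1 to 24.8%) lay above the 4 females (14.2 to 21.3%). This difference was 6.68 points (exact permutation test, two-sided, p = 0.02857, which no arrangement of 4 and 4 mice can go below, adjusted to 0.05714 over the 2 comparisons of shares). With each cell thinned to 3000 UMIs it was 3.59 points (exact permutation p = 0.02857). It was 3.87 points (exact permutation p = 0.1714) with a lead of at least 2 UMIs, and 1.28 points (exact permutation p = 0.3143) as a share of all kept cells.

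**Figure D5:**
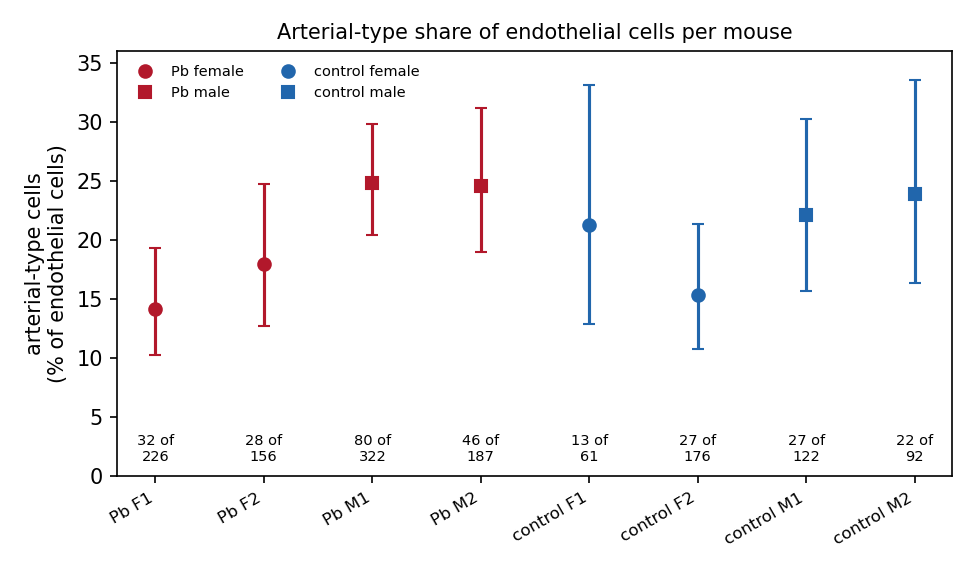
Arterial-type cells in percent of endothelial cells per mouse, with 95% Wilson intervals and the counts printed. Pb and control mice overlap, while the 4 males (22.1 to 24.8%) lie above the 4 females (14.2 to 21.3%).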

How the data were processed

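The authors deposited 1 table of UMI counts, with 17143 genes and 5258 cells, each cell named by its mouse. The submitters' processing notes name Cell Ranger, Seurat and mm10, with neither role nor version given in the sources used here. Library totals ran from 1763833 to 8864657 UMIs.

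The members and gene lists were chosen with earlier results of these data known. UMIs were summed per mouse and class and tested with edgeR 4.0.16 (R 4.3.3; TMM scaling, filterByExpr, quasi-likelihood, sex as covariate, Benjamini-Hochberg adjustment), with DESeq2 1.42.0 and limma 3.58.1 (voom) as alternatives. Shares were compared by exact permutation (scipy 1.17.1). Scrublet (scanpy 1.11.5, expected rate 0.02) was used only in an alternative that leaves doublets out. It marked 33 cells (0.628%). The fits were tested on simulated data. Positions are from GENCODE vM21 and promoters from RefSeq, both GRCm38.

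Named genes were the rule's genes; the 20 highest and 10 lowest against capillary-venous cells; those past a threshold or with the smallest p (10 for Pb, 3 for the product of exposure and sex); the highest members of each list; and 5 genes named in earlier results. Other list members were named after their values were seen. Same-numbered mice of the 2 groups did not deviate together (r from -0.186 to 0.0415), so numbers were not treated as pairs. No 2 libraries agreed within sampling noise.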

Additional observations from a re-analysis of the deposited data

Results flagged for a closer look

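Of 86 groups of 4 mice checked, 9 had 1 mouse far from the other 3. The nominal rate is about 1 in 20, but the groups are not independent, so the count cannot be judged by it. The red blood cell sum of control F1 contains its hemoglobin genes, where 1 cell held 2384 of 2445 UMIs. In control F1 the red blood cell markers summed to 16060 CPM in arterial-type cells, against 207.9 to 371.9 CPM in the other control mice. The same mouse stood apart in Hbb-bs (7347 CPM, others 140.8 to 322.8), Hba-a1 (3673 CPM, others 8.17 to 20.7), Hba-a2 (3601 CPM, others 10.4 to 33.5) and Hbb-bt (1388 CPM, others 10.4 to 20.4). Its fibroblast markers summed to 98.22 CPM, against 15.6 to 28.6 CPM. In Pb F1 the choroid plexus markers summed to 8949 CPM, against 8.50 to 330.6 CPM in the other Pb mice. All 32 arterial-type cells of Pb F1 had the marker Ttr, but 1 cell held 1510 of its 2620 UMIs (57.6%). Among control mice the marker sum was 13940 CPM in M2, above Pb F1, 2971 CPM in F2, 13.1 CPM in F1 and 20.7 CPM in M1. Cytl1 was at 141.2 CPM in Pb M1 (others 0 to 10.1 CPM) and at 98.53 CPM in control M1 (others 0 to 4.09 CPM).

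The Pb effect differed between arterial-type and capillary-venous cells, by edgeR's test of the difference itself, for 6 genes. DESeq2 called 0 genes, and without the shared barcodes edgeR no longer called Hsp90aa1 or Klf4. The differences in log2 fold change were 0.56 for Hsp90aa1, 0.55 for Klf4, -6.70 for Hbb-bt, -6.35 for Hba-a2, -6.23 for Hba-a1 and -4.22 for Hbb-bs. Without control F1, Hba-a1 (-2.47, edgeR adjusted p = 0.6587) and Hba-a2 (-3.03, edgeR adjusted p = 0.3225) no longer passed, and Hbb-bt was at -4.34. Without Pb M1, Hbb-bt was at -4.76, Hba-a2 at -4.70, Hba-a1 at -4.47 and Hbb-bs at -3.23, all past the threshold.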

How the results depend on the processing

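For Pb against control, where edgeR called 0 genes, 22 were called with no low-count filter, 2 with DESeq2, 2 with limma-voom, 1 with a lead of at least 2 UMIs, 1 with no sex covariate and 1 with the replicate block (Hba-a2); leaving out 1 mouse gave 0 to 5. The 5 came without control F2 (Hba-a1, Hba-a2, Ptgds, Abhd2, Kif5a). The mice share only a number, so the block is not a pairing; crossing the female numbers, chosen after seeing the data, gave 0 calls. Between the sexes, 20 genes were called with no filter and 2 to 4 with 1 mouse left out, and for exposure by sex 13 and 0 to 4. The Pb effect differed between classes for 12 genes with no filter, 1 with hemoglobin cells left out, 0 with DESeq2, and 4 to 11 with 1 mouse left out. The cause of these changes was not tested.

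The Pb difference in share was 0.542 points thinned to 3000 UMIs (95 Pb and 52 control endothelial cells were shallower and left out), 0.390 with a lead of at least 2 UMIs, 0.894 without shared barcodes, -0.286 with the replicate block (exact permutation p = 1.0), and -2.064 to 1.79 with 1 mouse left out. The sex difference was 1.28 points over all kept cells, 3.87 with a lead of at least 2 UMIs and 5.67 to 8.06 with 1 mouse left out, where 3 against 4 mice cannot go below an exact permutation p of 0.05714; its alternatives were chosen after seeing the data. Hmox1 turned to -0.05 without Pb F1 (range to 0.40), and Hba-a1 to 0.34 with hemoglobin cells left out. Of the other values for single genes, 373 kept direction and side of the threshold, 22 lost and 21 gained a call. Few cells per mouse limit the precision, down to 13 in control F1.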
